A study of Mus musculus with 6 samples.

Results

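Cytosolic ribosomal proteins are the proteins of the large (60S) and small (40S) subunits of the ribosome outside mitochondria. They were followed here in the neocortex of mouse embryos that lack synaptic transmission. Members were the probes whose single gene symbol starts with Rpl or Rps and a digit, or is Rpsa, Rplp0, Rplp1 or Rplp2, with the kinases named Rps6k left out. This gave 43 of 6856 probes, for 41 genes, of which 27 probes (26 genes) belong to the large subunit and 16 probes (15 genes) to the small one. The probe of Rps2 had no value on any array, so 42 probes of 40 genes had data, 41 of them on all 6 arrays. Another 2 probes carry a second symbol beside Rpl12 or Rpl36 and are not members.

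RNA of 6 null mutant embryos of embryonic day 14 (C57BL/6) was hybridised to 6 arrays of 2 colours, 1 embryo per array, each against the same pool of wild-type RNA from 6 animals of that day and background. The mutant was labelled with cy3 on replicates 1, 2 and 3 and with cy5 on replicates 4, 5 and 6. The labels name no driver or cell type that would limit the null mutation. With the pool as the only control, how far wild-type animals differ among themselves is not measured. The labels call the mutants biological replicates, and the number of arrays limits the precision.

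Each value is a deposited log ratio, read as log2; neither the base nor the numerator is stated. The text gives values as deposited, and a mutant to pool estimate under both readings: every array as mutant over pool, or cy5 over cy3, which turns the sign of replicates 1 to 3. Up to scale, the estimate of one reading is the difference between dye orientations in the other. Only 1 of the 2 can therefore describe the mutant, and the labels do not settle which. Arrays held 4396 to 5678 values, and their standard deviations ran from 0.35 on replicate 2 to 1.09 on replicate 3. Replicates 3 and 4 correlated at 0.59 over all probes and correlated negatively with each other array, so results are also given without them. A ratio gives no level, so the labelled tissue could not be checked against the levels of its defining markers.

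Each ribosome holds 1 copy of almost every ribosomal protein, and cells make these proteins in balanced amounts. In vertebrates their mRNAs are known for a pyrimidine tract at the 5′ end, through which the kinase mTOR and the RNA-binding protein Larp1 set how much is translated. In the embryonic cortex, dividing progenitors have a high demand for ribosomes, and neurons continue to make them as they grow.

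The annotated starts of members were searched for such a tract, because it is the feature that these mRNAs are known to share. RefSeq starts (GRCm38.p6) were found for 33 of the 41 genes. The search covered 5 bases either side of the annotated first base, only on the strand that reads like the mRNA. A C followed by at least 4 letters C or T was there in 8 of 33 genes (24.2%), against 14.8% of 27025 tabulated genes. The first base itself was C in 11 of 33 (33.3%), against 18.9% of all. A missing match says only that the letters are not in this window, and annotated starts can lie away from the true one. Shown are 4 genes with a match, tract in capitals, and 3 members named below without one, each with 15 bases before the annotated start and 15 from it on.
Rps6, chr4:86857353-86857382, minus strand: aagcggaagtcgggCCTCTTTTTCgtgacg
Rps18, chr17:33955651-33955680, minus strand: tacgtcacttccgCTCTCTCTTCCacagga
Rpl28, chr7:4792950-4792979, plus strand: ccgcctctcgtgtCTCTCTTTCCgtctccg
Rpl38, chr11:114668565-114668594, plus strand: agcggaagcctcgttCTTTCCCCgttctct
Rpl27, chr11:101442230-101442259, plus strand: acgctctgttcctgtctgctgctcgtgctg
Rpl41, chr10:128549154-128549183, minus strand: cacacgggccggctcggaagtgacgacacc
Rpsa, chr9:120127751-120127780, plus strand: gtgggttatttaaggacgtcatttccggcc

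The ribosomal protein probes lay on the same side of 0 on most arrays, but not on the same side from array to array. Their median ratio was 0.28, 0.18, -0.89, -0.49, -0.0045 and -0.35 on replicates 1 to 6, with a mean of -0.21 ± 0.45 (SD, n = 6). The medians of replicates 1 and 2 are thus the only ones clearly above 0, and that of replicate 5 is at 0. On replicate 1, 36 of 42 members lay above 0, against 56.1% of all probes with a value there, and on replicate 2, 35 of 42, against 57.1%. Below 0 lay 41 of 42 members on replicate 3 (58.2% of all probes), 37 of 41 on replicate 4 (59.7%) and 40 of 42 on replicate 6 (50.6%). Replicate 5 differed, with 26 of 42 below 0 (44.6% of all probes).

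Because arrays differ in width, the same medians were also placed among all probes of their array. The median member lay above 79.6% and 75% of probes on replicates 1 and 2. On replicates 3, 4 and 6 it lay above 18.3%, 17.9% and 14.6% of probes, and on replicate 5 above 43.9%. The members were therefore about as far out on replicate 6 as on replicate 3, although the ratios there were smaller. Members also lay closer together than other probes. Their interquartile range was 0.26, 0.21, 0.45, 0.24, 0.18 and 0.25 on replicates 1 to 6, against 0.42, 0.31, 1.31, 0.72, 0.39 and 0.47 for all probes.

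**Figure D1:**
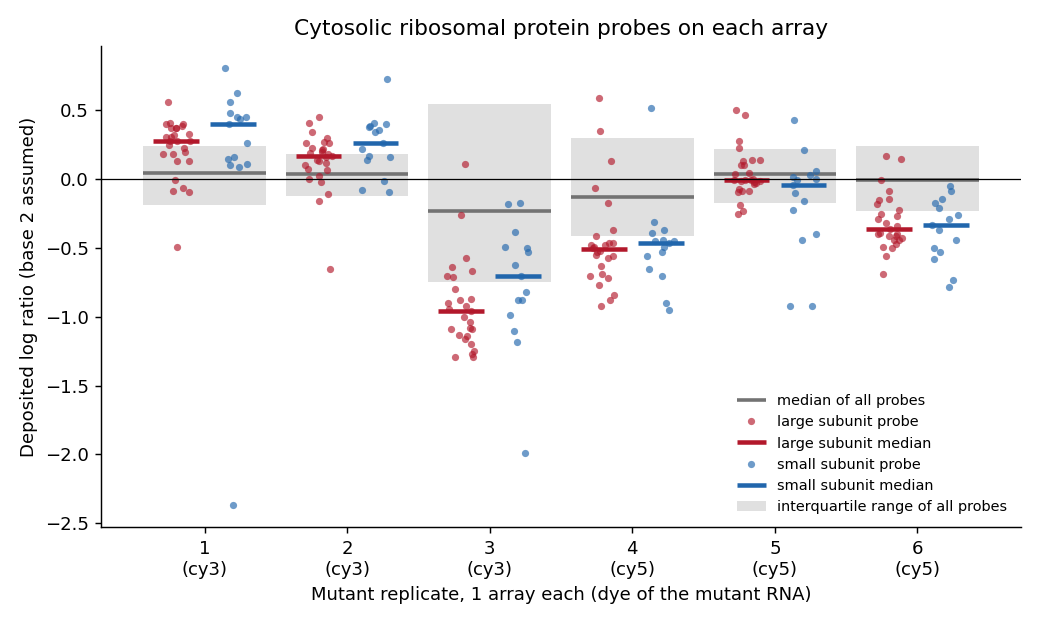
Deposited log ratio (base 2 assumed) of each large and small subunit probe on the 6 arrays, with the median of each subunit as a coloured bar, and the interquartile range and median of all probes in grey. Most members lie above 0 on replicates 1 and 2, below it on replicates 3, 4 and 6 and around it on replicate 5, where the median is -0.0045.

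No ribosomal protein probe differed between mutants and pool past the threshold, under either reading of the sign. With ratios as deposited, 0 of 42 members had an adjusted p under 0.05 in limma, as did 0% of the 4958 probes fitted; the smallest adjusted p among members was 0.921. At an unadjusted p under 0.05 there was 1 member, against 1.77% of all probes. Estimates were below 0 for 39 of 42 members, against 56.7% of all probes, and their median was -0.22, against -0.033 over all probes. With replicates 1 to 3 turned, 0 of 42 passed (0% of all probes), the smallest adjusted p was 0.972, and 1 member had an unadjusted p under 0.05, against 4.6% of probes. In that reading 30 of 42 estimates were below 0, against 47% of probes, with a median of -0.07.

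The lower side of the estimates as deposited rests on replicates 3 and 4, and more on replicate 3 than on replicate 4. Without them, 14 of 42 estimates were below 0, against 37.4% of 4728 probes, with a median of 0.029; 0 members passed in limma (0.0212% of probes did) and 2 had an unadjusted p under 0.05 (13.6% of probes). Without replicate 3 alone, 29 of 42 estimates were below 0, with a median of -0.033. Without replicate 4 alone, 39 of 42 were, with a median of -0.17. Under the turned reading the medians of the members are -0.28, -0.18, 0.89, -0.49, -0.0045 and -0.35 on replicates 1 to 6, so that replicate 3 stands alone above 0. With replicates 1 and 2 turned and replicates 3 and 4 left out, a setting chosen after the data were seen, 36 of 42 estimates were below 0 (52.2% of probes), with a median of -0.21. There 20 members had an unadjusted p under 0.05, 19 of them below 0, against 23.4% of all probes, and 0 passed, with a smallest adjusted p of 0.122 in limma (0% of probes passed).

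**Figure D2:**
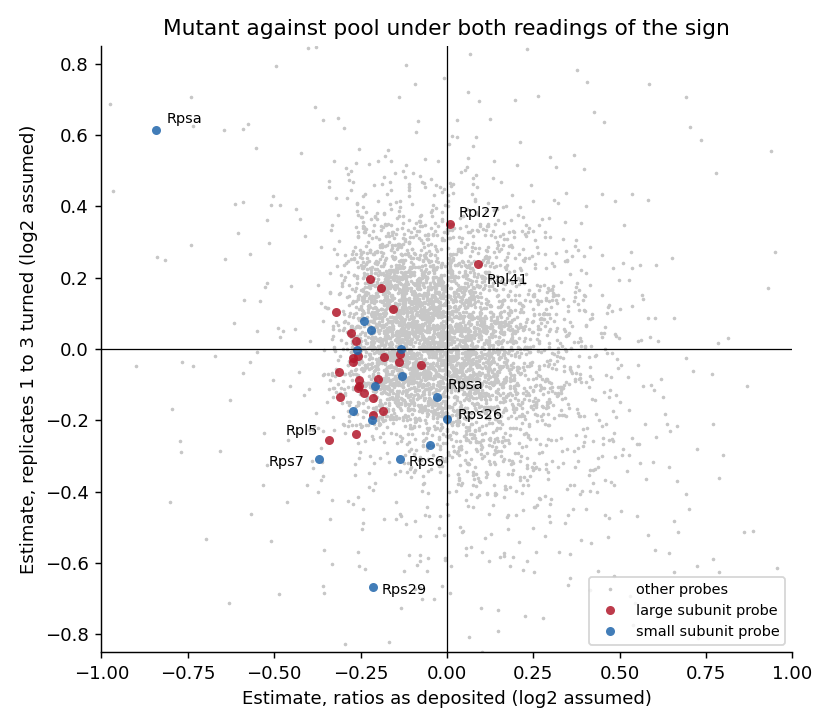
Estimate of mutant against pool (log2 assumed) with ratios as deposited on the horizontal axis and with replicates 1 to 3 turned on the vertical axis, for members (coloured) and other fitted probes (grey; 54 of 4916 lie outside the axes). Most members lie left of 0 on the horizontal axis, while on the vertical axis they lie on both sides of 0, 30 of 42 below it.

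Medians of the large and the small subunit lay on the same side of 0 on every array. The median of the large subunit was 0.28, 0.17, -0.96, -0.51, -0.0043 and -0.36 on replicates 1 to 6. That of the small subunit was 0.40, 0.26, -0.70, -0.46, -0.039 and -0.33. The large subunit was lower on 5 of 6 arrays, by less than either moved between arrays: large minus small was -0.12, -0.088, -0.26, -0.054, 0.035 and -0.038, with a mean of -0.088 ± 0.10 (SD, n = 6). In size this mean is below the SD, which describes single arrays and not the error of the mean, and it was not tested. The mean was 0.069 with replicates 1 to 3 turned and -0.053 without replicate 3. Below 0 as deposited were 25 of 27 large and 14 of 15 small subunit estimates, with medians of -0.24 and -0.22. Turned, 19 of 27 and 11 of 15 were below 0, with medians of -0.036 and -0.13.

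Co-movement was described by setting each of the 41 members with complete values against the median of the other members over the 6 arrays. The correlation r had a median of 0.95 and was above 0.9 for 29 members, 20 of 26 in the large and 9 of 15 in the small subunit. The points of such an r are 6 arrays that share 1 pool and differ in width, and it carries no p. The same r against the members' median was above 0.9 for 18.3% of the 3722 other probes with complete values, and its median over them was 0.58, so a high r was not rare among them. Without replicates 3 and 4, over 4 arrays, 26 of 41 members (63.4%) and 20.3% of other probes were above 0.9. Turned, 35 of 41 members (85.4%) and 32% of other probes were.

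Within the large subunit the mean r over pairs of members was 0.72, within the small subunit 0.67, and between a large and a small subunit member 0.68. A member was therefore on average about as close to members of the other subunit as to its own. Of the variance of the 41 members' ratios 57.1% lay between arrays, against 2.72% over all probes with complete values. Without replicates 3 and 4 these shares were 32.2% and 0.834%.

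In all, 32 of 41 members lay above 0 on replicates 1 and 2 and below 0 on replicates 3 and 4, against 33.1% of 3766 probes. These signs are those of the members' own medians, so the count describes the members and is not a test. Among all probes, 1246 had these signs, and 857 of those also lay below 0 on replicate 6 (22.8% of 3763 probes). All 32 members lay below 0 there as well, so that 32 of 41 (78%) had the whole pattern. In the large subunit these 20 were Rpl3, Rpl5, Rpl6, Rpl7, Rpl7a, Rpl8, Rpl9, Rpl10, Rpl13, Rpl19, Rpl21, Rpl22, Rpl23, Rpl27a, Rpl30, Rpl35a, Rpl36a, Rpl38, Rplp1 and 1 probe of Rplp0. In the small subunit the 12 were Rps3a1, Rps4x, Rps6, Rps7, Rps12, Rps14, Rps16, Rps18, Rps26, Rps28, Rps29 and 1 probe of Rpsa. Over these 32 the ratios ran from 0.10 (Rps7) to 0.81 (Rps29) on replicate 1 and from 0.067 (Rplp1) to 0.73 (Rps29) on replicate 2. They ran from -1.29 (Rpl9) to -0.17 (Rps3a1) on replicate 3 and from -0.95 (Rps29) to -0.17 (Rpl8) on replicate 4. On replicate 6 they ran from -0.78 (Rps29) to -0.047 (Rpsa). Replicate 5 alone had both signs, from -0.92 (Rps29) to 0.28 (Rpl13), with 23 of the 32 below 0.

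Rpl5, which carries the 5S rRNA into the large subunit and binds Mdm2 when assembly fails, had ratios of 0.56, 0.45, -1.27, -0.88, -0.23 and -0.69 on replicates 1 to 6. It lay farther from 0 than the median member on every array. The gene identifier of its probe was not matched in the RefSeq table. Its estimate was -0.34 ± 0.25 (SE, n = 6; limma adjusted p = 0.921) as deposited, -0.26 ± 0.25 turned and 0.024 without replicates 3 and 4. Rpl3, at the peptidyl transferase centre, had 0.13, 0.14, -0.80, -0.92, -0.004 and -0.40, for an estimate of -0.31 ± 0.18 (SE, n = 6), or -0.034 without replicates 3 and 4. Rpl6 had 0.25, 0.13, -1.13, -0.72, 0.036 and -0.44. Both thus changed sign between arrays, as the median member does. Rpl10, whose joining is a late step in making the large subunit and whose gene is on the X chromosome, had 0.37, 0.23, -0.64, -0.55, -0.25 and -0.27.

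The proteins of the stalk, the lateral arm that recruits translation factors, followed the others. Rplp0, its base, has 2 probes. One had 0.33, 0.30, -1.08, -0.77, -0.082 and -0.25. The other had 0.39, 0.19, -0.67, -0.014 and -0.22 on replicates 1, 2, 3, 5 and 6 and no value on replicate 4, and its gene identifier was not matched in the RefSeq table. The pair lay on the same side of 0 on all 5 arrays where both had a value. Rplp1, 1 of the acidic proteins bound to Rplp0, had 0.28, 0.067, -0.57, -0.48, -0.021 and -0.56.

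In the small subunit, Rps7 had the lowest estimate of the genes with 1 probe, at -0.37 ± 0.17 (SE, n = 6; limma adjusted p = 0.921) as deposited and -0.31 ± 0.17 turned. Its ratios were 0.10, 0.40, -0.70, -0.90, -0.40 and -0.73, so 4 of 6 arrays were below 0, and without replicates 3 and 4 it stood at -0.16. Rps28 had 0.45, 0.14, -0.88, -0.53, -0.22 and -0.58. Rps4x, from an X-linked gene, had 0.40, 0.16, -0.62, -0.56, -0.16 and -0.53. Rps26, which sits where mRNA leaves the small subunit, had 0.56, 0.41, -0.38, -0.45, -0.0019 and -0.14, which balance to an estimate of 0.00013 ± 0.16 (SE, n = 6) as deposited and -0.20 turned.

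Rps29 had the lowest turned estimate of the members, followed by Rps6 and Rps7 at -0.31 each. Rps6, the substrate of the S6 kinases, had 0.63, 0.38 and -0.50 on the cy3 mutants and -0.39, -0.44 and -0.50 on the cy5 mutants. Rps29 had 0.81, 0.73 and -0.18 on the cy3 mutants and -0.95, -0.92 and -0.78 on the cy5 mutants. On replicate 5, where the median member was at 0, both lay well below it. All 3 cy5 values of Rps29 were lower than any of its cy3 values, and its turned estimate was -0.67 ± 0.16 (SE, n = 6; limma adjusted p = 0.972, unadjusted p = 0.00372), against -0.22 ± 0.16 as deposited. It was the 1 member with an unadjusted p under 0.05 in the turned reading.

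**Figure D3:**
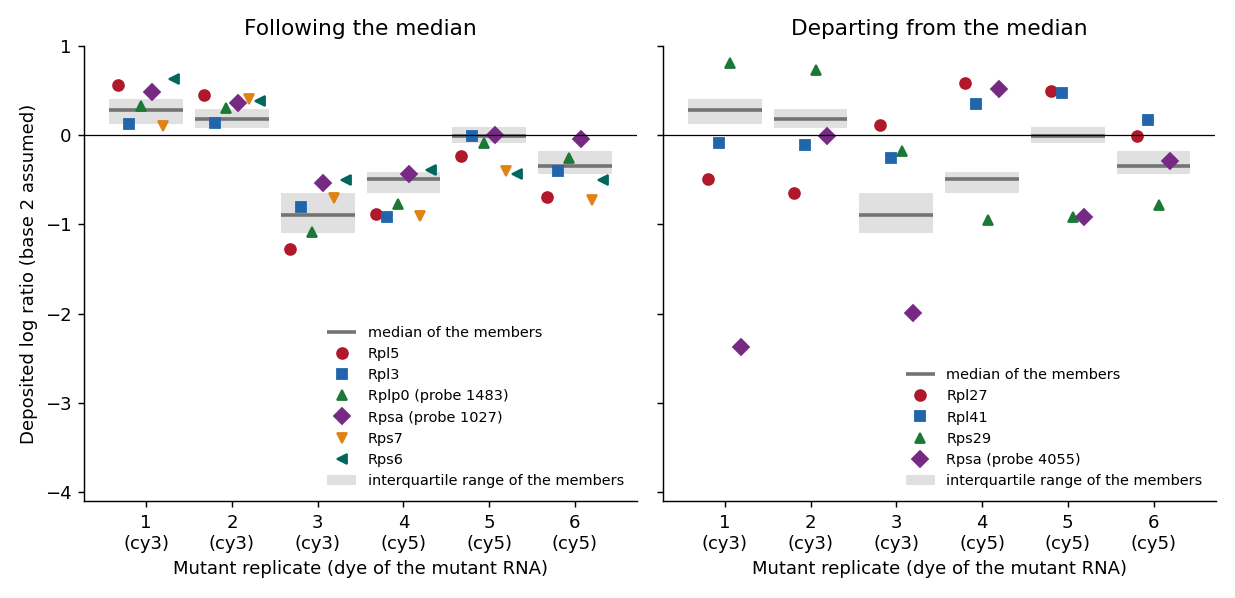
Deposited log ratio (base 2 assumed) of single members on the 6 arrays, each set against the median and interquartile range of all members in grey. On the left 6 probes take the side of the median on most arrays. On the right Rpl27, Rpl41 and 1 probe of Rpsa leave it on several arrays, with Rpl27 at -0.49 and -0.65 on replicates 1 and 2. Rps29, also on the right, keeps the side of the median and differs from it in size.

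The other 9 members with complete values departed from the shared pattern on at least 1 array. Rpl27 opposed it: its ratios were -0.49, -0.65, 0.11, 0.59, 0.50 and -0.0043, and its r with the other members was -0.56, the lowest of the 41. On replicates 1, 2, 3 and 4 it lay on the other side of 0 from the median member. Its estimate was 0.0095 ± 0.15 (SE, n = 6; limma adjusted p = 0.988) as deposited and 0.35 ± 0.15 (SE, n = 6; limma adjusted p = 0.972) turned. Rpl41, a peptide of the large subunit that is among the shortest proteins known, had -0.082, -0.11, -0.26, 0.35, 0.47 and 0.17. It had the highest estimate of all members as deposited, 0.09 ± 0.11 (SE, n = 6; limma adjusted p = 0.921), and 0.24 ± 0.11 turned.

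Rpl37a was the 1 member below 0 on all 6 arrays, with -0.005, -0.021, -1.25, -0.50, -0.00077 and -0.15, where 1.44% of 3763 probes kept 1 sign throughout. Of these 6 values 3 lie within 0.021 of 0, so its single sign says little. Its estimate was -0.32 ± 0.19 (SE, n = 6; limma adjusted p = 0.921). Rpl28 had -0.06, -0.16, -0.87, -0.067, 0.10 and -0.089, and was far from 0 on replicate 3 alone. Rpl13a, known for a role outside the ribosome in silencing inflammatory mRNAs, had -0.094, 0.027, -1.20, -0.46, 0.23 and 0.15. Rpl10a left the pattern on replicate 4, at 0.13, with 0.13, 0.0038, -0.94, 0.14 and -0.41 on replicates 1, 2, 3, 5 and 6. Rps3, at the mRNA entry of the small subunit, and Rps15 left it on replicate 2, at -0.076 and -0.093.

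Rpsa, a small subunit protein also described as a laminin receptor precursor, has 2 probes that disagreed. Probe 1027 had 0.48, 0.36, -0.53, -0.44, -0.00065 and -0.047, close to the other members (r = 0.95 over the 6 arrays). Probe 4055 had -2.37, -0.011, -1.99, 0.52, -0.92 and -0.29 (r = -0.048). They lay on opposite sides of 0 on replicates 1, 2 and 4, and on replicate 1 they were farthest apart. Probe 4055 had the lowest estimate of all members, -0.84 ± 0.33 (SE, n = 6; limma adjusted p = 0.921, unadjusted p = 0.038), and the highest turned estimate, 0.61 ± 0.33. Probe 1027 stood at -0.03 ± 0.17 (SE, n = 6) as deposited and -0.13 turned. The 1 member with an unadjusted p under 0.05 as deposited is thus probe 4055. Processed pseudogenes of ribosomal proteins are common in the mouse genome, and whether the probes bind them was not tested.

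Members with and without a tract at the annotated start were set side by side, with no test. For the 8 genes with it (Rpl7a, Rpl19, Rpl27a, Rpl28, Rpl35a, Rpl38, Rps6 and Rps18) these were 0.27, 0.24, -1.09, -0.51, 0.013 and -0.41 on replicates 1 to 6. For 24 genes with a start and values but no match they were 0.26, 0.17, -0.88, -0.49, -0.00071 and -0.27.

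Other genes of translation lay on the same sides of 0 as the ribosomal proteins on most arrays. Initiation factors, which load the small subunit onto mRNA, had medians of 0.22, 0.21, -0.92, -0.55, 0.0057 and -0.32 over 16 genes on replicates 1 to 6. All 16 estimates were below 0 as deposited, against 56.7% of all probes, and 10 were when turned, against 47%. In either direction 0 passed. Eif2s3x, the gamma subunit of the factor that brings the initiator tRNA, had 0.25, 0.25, -0.88, -0.80, -0.10 and -0.42, and Eif3c stood at -0.26 ± 0.18 (SE, n = 6) as deposited and 0.10 turned. Elongation, termination and recycling factors had medians of 0.31, 0.19, -0.81, -0.67, -0.079 and -0.25 over 11 genes, with 0 passing. This list also holds Eef2k and Tpt1, which enter these medians. Of 10 fitted estimates 9 were below 0 as deposited (56.7% of all probes) and 8 turned (47%), with medians of -0.19 and -0.12. Eef1a1, which delivers aminoacyl-tRNA, stood at -0.30 ± 0.19 (SE, n = 6) as deposited and -0.07 turned. Abce1, a ribosome recycling factor, was the exception, with -0.085, 0.62, 1.04, 0.69, -0.083 and -0.14.

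Ribosomal proteins of mitochondria, which build a separate ribosome, had medians of 0.23, 0.024, -0.38, -0.35, -0.049 and -0.35 over 9 genes. Of their estimates 8 of 9 were below 0 as deposited (56.7% of all probes) and 7 turned (47%), with medians of -0.13 and -0.074. Mrpl39 stood at -0.22 as deposited, -0.10 turned and -0.07 without replicate 3, and Mrps9 at -0.21, -0.074 and -0.08. Over 27 ribosome biogenesis genes the medians were 0.13, 0.079, -0.72, -0.10, -0.034 and -0.15, closer to 0 than those of the ribosomal proteins on 5 of 6 arrays, replicate 5 being the exception. Of 26 fitted, 18 were below 0 as deposited, against 56.7% of all probes, and 12 turned, against 47%, with medians of -0.094 and 0.014. The RNA polymerase subunit gene Polr1d stood at -0.27 as deposited and -0.02 turned, and the small subunit assembly factor gene Ltv1 at -0.22 and 0.06. For 9 genes linked to the docking of ribosomes in the secretory pathway the medians were 0.18, 0.063, -1.03, -0.37, 0.18 and -0.10. Of these genes, Naca stood at -0.29 as deposited and -0.17 turned, and Srp54a at -0.22 and 0.17. Fau, a ribosomal protein of the small subunit made as a fusion and outside the naming rule, had 0.18, 0.14, -0.64, -0.29, 0.15 and -0.26.

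A list of mTOR pathway genes together with Myc family genes and RNA-binding proteins linked to pyrimidine tracts (Cnbp, Ssb), 18 genes with values, had medians of 0.02, 0.074, -0.66, -0.29, 0.091 and 0.047. They lay near 0 on replicate 6, where the ribosomal proteins were at -0.35. As deposited 16 of 17 estimates were below 0, with a median of -0.09, against 56.7% of all probes; turned, 8 of 17 were, with a median of 0.10, against 47% of probes. Eif4ebp2, a repressor of cap-dependent translation, stood at -0.20 ± 0.12 (SE, n = 6) as deposited and 0.14 turned, and the kinase gene Pdpk1 at -0.19 ± 0.12 (SE, n = 5) and 0.15. In each of these lists 0 members passed higher or lower under either reading.

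**Figure D4:**
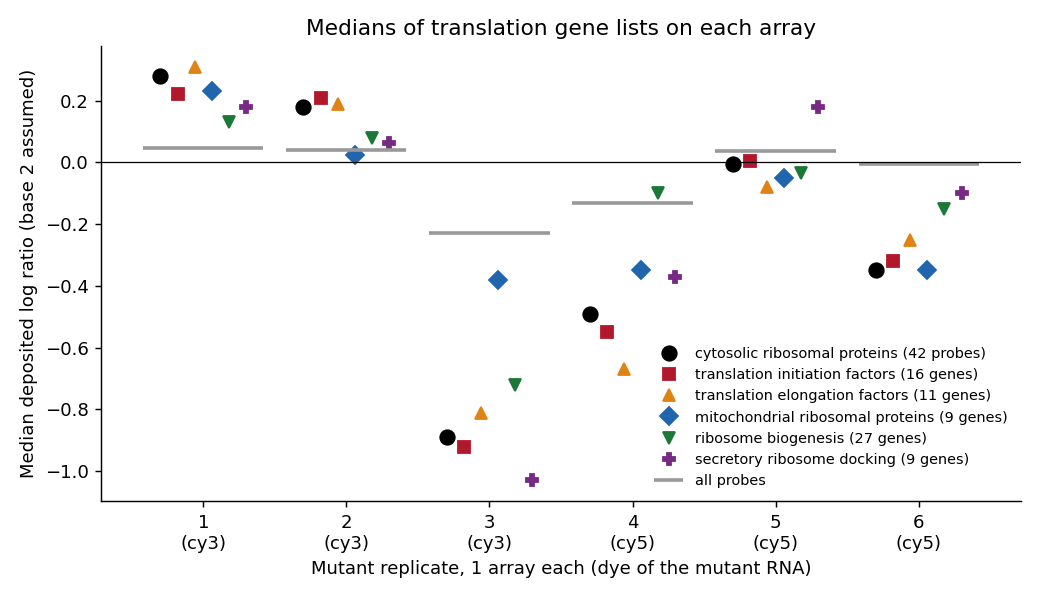
Median deposited log ratio (base 2 assumed) of the cytosolic ribosomal proteins and of 5 other translation gene lists on each of the 6 arrays, with the median of all probes as a grey bar. Initiation and elongation factors lie near the ribosomal proteins, at -0.92 and -0.81 against -0.89 on replicate 3, and ribosome biogenesis genes lie nearer the median of all probes than the ribosomal proteins do, except on replicate 5.

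Markers of the labelled tissue and of cell types were read beside these medians. The 17 neocortex genes had 0.0082, 0.043, -0.68, 0.13, -0.052 and -0.20 on replicates 1 to 6. The 26 progenitor genes had medians of 0.28, 0.11, -0.21, -0.11, 0.018 and -0.0014 on replicates 1 to 6. The 20 neuron genes had -0.049, 0.14, -0.78, -0.16, 0.0019 and -0.056. Erythroid genes (9) had -0.014, -0.20, 0.24, 0.0047, 0.17 and 0.077, and genes of meninges and vessels (17) had -0.42, -0.083, -0.082, -0.064, 0.16 and 0.26. Microglia (10 of 14 genes with a value on any array) had 0.029, 0.079, 0.34, 1.24, -0.16 and 0.18. On replicate 3 the 0.34 rests on Aif1 (-0.50), C1qb (5.06), C1qc (-1.14) and Itgam (1.17) alone. On replicate 4 the 1.24 is the value of C1qa, with only Aif1 (-0.27) and C1qb (2.41) beside it. Interneuron genes (12) had -0.46, -0.12, 0.38, -0.088, -0.23 and 0.20, choroid plexus genes (6 of 7) 0.11, 0.0086, 0.32, 0.50, 0.43 and 0.059, and glial genes (8 of 13) -0.18, -0.093, -0.59, -0.31, 0.47 and 0.074. The choroid plexus 0.50 on replicate 4 is the value of Folr1, with only Ttr (-2.39) and Msx1 (1.85) beside it. The glial -0.31 on that array rests on Gja1 (-0.32), Olig2 (-0.12), Slc1a3 (-0.30) and Sox10 (-0.45) alone. The part of cell makeup, of array width and of dye in the ratios of the ribosomal proteins was not tested. In such tissue samples, fewer cells of a type and less RNA per cell cannot be told apart.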

How the data were processed

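The deposited table holds a log2 ratio per probe and array, made by the authors; base 2 is assumed, since base 10 would put the largest size of 7.84 beyond a scanner's range and a natural logarithm cannot be told apart. How the authors scanned and normalized the arrays is not given in the sources used here; no intensities were used. The platform annotation named the probes (1 symbol for 6269, several for 6, none for 581); 41 of 43 member probes matched RefSeq by gene identifier. Members and lists were chosen with earlier results of these data known. The 4958 probes with 2 or more values per dye orientation were fitted in limma 3.58.1 (R 4.3.3, lmFit and eBayes) with an intercept for the mutant and a term for dye; two-sided p-values were adjusted over all probes (Benjamini-Hochberg) and called under 0.05. The fit was tested on simulated data. Given on every array are the members of each subunit with the 3 smallest p and the 2 lowest and 2 highest estimates. So are genes with several probes and a preset few. Up to 2 genes with the smallest p of each other list are named, with array values or with estimates only. The values of Rpl10a, Rpl13a, Rpl28, Rps3 and Rps15 were chosen after they were seen. Alternatives were the turned sign, no dye term, centring, scaling, complete probes, averaging per gene, array weights, a threshold of 0.1 and leaving out arrays. The targeted gene is not reported here.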

Additional observations from a re-analysis of the deposited data

Results flagged for a closer look

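Among 35 sets of array values checked for a lone outlying array, which chance flags about 1 time in 20, only Srp54a, a signal recognition particle gene, stood out: it lay at -1.12 on replicate 3, with -0.32 as its next lowest value. Replicate 3 was the widest array (SD 1.09), which this check does not allow for. The 9 genes of the secretory pathway list, Srp54a among them, had a median of -1.03 there.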

How the results depend on the processing

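No member passed at an adjusted p of 0.05 or 0.1 or in any alternative. Estimates below 0 numbered 39 of 42 and ranged from 29 to 40 when 1 replicate was left out; they were 14 without replicates 3 and 4. The members' median ranged from -0.32 to -0.033 when 1 replicate was left out and was -0.086 after centring and scaling, -0.18 after centring and -0.012 with array weights, where replicates 3 and 4 had weights of 0.1 and 0.305. Large minus small subunit was 0.069 with replicates 1 to 3 turned and ranged from -0.11 to -0.053 over single omissions; the dye term and weights do not enter it.
Named genes that changed sign did so as follows, and the cause was not tested.
With replicates 1 to 3 turned, Rpl37a stood at 0.10, Rps26 at -0.20, Rpsa (probe 4055) at 0.61, Abce1 at -0.18, Eif3c at 0.10, Ltv1 at 0.06, Eif4ebp2 at 0.14, Pdpk1 at 0.15 and Srp54a at 0.17.
After median centring, Rpsa (probe 1027) stood at 0.01.
After centring and scaling, Rpl27 stood at -0.084, Rpsa (probe 1027) at 0.10 and Rplp0 (probe 6574) at 0.0038.
Without replicates 3 and 4, Rpl5 stood at 0.024, Rpl27 at -0.16, Rpsa (probe 1027) at 0.20, Rpl10 at 0.019, Rplp0 (probe 1483) at 0.074, Rps6 at 0.017, Rplp0 (probe 6574) at 0.085, Mrps9 at 0.0087, Fau at 0.054, Naca at 0.059 and Srp54a at 0.025.
With array weights, Rpl27 stood at -0.18, Rpsa (probe 1027) at 0.17, Rplp0 (probe 1483) at 0.028, Rplp0 (probe 6574) at 0.053, Fau at 0.012, Naca at 0.0048 and Srp54a at 0.019.
When 1 replicate was left out, values ranged for Fau from -0.19 to 0.014, Rpl27 from -0.10 to 0.10, Rplp0 (probe 6574) from -0.18 to 0.085, Rps26 from -0.09 to 0.14, Rps6 from -0.25 to 0.031 and Rpsa (probe 1027) from -0.12 to 0.13.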
